A study of Mus musculus with 2 samples.

Results

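UMIs of *Cyr61*, *Vcam1*, *Tcim* and *Egfl7* were counted in a subset of sciatic nerve macrophages. The genes are better known from stromal, epithelial and endothelial cells. How much of their RNA in these cells was RNA free in the droplets was not tested. A cell was chosen when it had at least 1000 UMIs and 200 genes and at least 2 UMIs summed over these 4 genes, and it was set against every other cell with at least 1000 UMIs. The rule found 396 of 3764 cells, of which 164 were among 895 cells of the YFP- library and 232 among 2869 cells of the YFP+ library. Because these 4 genes chose the cells, their own levels in the chosen cells are a description. *Gpx3*, the fifth gene that marked the cells in an earlier look at the same data, did not enter the rule, but it is no independent support either.

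The sciatic nerves of 19 male Flt3-Cre LSL-YFP fl/fl mice aged 10 to 12 weeks, with no treatment that the labels name, were combined into 1 pool by the study's methods, so the libraries share their animals. The sources differ on how many nerves were pooled, and the number of mice here is that of the labels. The Cre is driven by *Flt3*, which is active in multipotent progenitors of blood, so YFP marks cells whose ancestors passed through that stage. Macrophages were sorted on CD64 and CD45 and split by YFP into 2 libraries of 10x Chromium v2 chemistry, 1 per condition. No library was repeated, so no difference between libraries could be tested, and cells of a pool are not replicates. Every interval below is a 95% interval that covers counting error only, and no p-value is given. The deposited matrices held 3653688 UMIs in the YFP- and 9365598 UMIs in the YFP+ library, and the median depth of a cell with at least 1000 UMIs was 2522 and 1897 UMIs. The libraries shared 5 cell barcodes, none of them among the chosen cells.

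*Cyr61* encodes CCN1, a secreted matrix protein that binds integrins and is switched on quickly by serum, stretch and the YAP and TAZ coactivators. *Vcam1* encodes an adhesion molecule that holds leukocytes bearing the integrin alpha-4 beta-1; besides activated endothelium, it is made by macrophages of the spleen and bone marrow. *Egfl7* encodes a secreted factor of the vessel wall, and *Tcim* a small regulator of transcription linked to beta-catenin signalling. *Gpx3* encodes a secreted glutathione peroxidase, a selenoprotein that removes peroxides. Macrophages of peripheral nerves are long-lived resident cells, some lying among the nerve fibres and others in the outer sheath, and monocytes from blood can add to them.

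In the GENCODE M21 annotation of GRCm38, *Cyr61* (ENSMUSG00000028195) lies on the minus strand of chr3:145646976-145649981 and *Vcam1* (ENSMUSG00000027962) on the same strand at chr3:116109949-116129688. *Tcim* (ENSMUSG00000056313) is on the minus strand of chr8:24437180-24438984, *Egfl7* (ENSMUSG00000026921) on the plus strand of chr2:26580014-26593120 and *Gpx3* (ENSMUSG00000018339) on the plus strand of chr11:54902453-54910377. All 5 are protein-coding. Since *Cyr61* was the rule gene found in the most chosen cells, the 250 bases before its start are shown, from RefSeq on GRCm38.p6 at chr3:145649986-145650235, minus strand, with a match to the TEAD motif in capitals.

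*Cyr61* promoter: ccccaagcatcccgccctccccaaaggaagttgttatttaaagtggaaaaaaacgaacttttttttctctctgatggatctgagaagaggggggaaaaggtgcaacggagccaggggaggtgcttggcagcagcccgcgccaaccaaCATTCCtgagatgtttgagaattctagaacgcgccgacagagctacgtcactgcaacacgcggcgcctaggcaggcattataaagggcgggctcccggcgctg

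The match reads GGAATG on the other strand and spans bases -103 to -98 from the start. Among 32851 RefSeq promoters, 12.6% held these letters on either strand in the same window, so a match is common. The NF-kB motif (GGG, any 2 bases, TTTCC), the CRE TGACGTCA, the AP-1 motif TGANTCA and the CArG box had no match in this window, and they were found in 1.41%, 1.55%, 6.75% and 1.47% of promoters. In the single RefSeq promoter of *Gpx3* and the 3 of *Egfl7*, none of the 5 motifs matched.

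The chosen cells made up 18.3% (15.8 to 21.02%, exact binomial) of the YFP- and 8.09% (7.11 to 9.14%) of the YFP+ library. Depth moved with this share. Across 4 equal groups of cells ordered by UMI total, the share went from 13.8% in the shallowest to 27.2% in the deepest group of the YFP- library, and from 4.46% to 14.2% in the YFP+ library. With every cell thinned to 1000 UMIs, 62 YFP- cells (6.93%, 5.35 to 8.79%) and 100 YFP+ cells (3.49%, 2.84 to 4.22%) met the rule. The share was the higher one in the YFP- library at either depth, and so was the level of the 4 genes in free RNA, given below. With 1 library each, this was not tested.

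**Figure D1:**
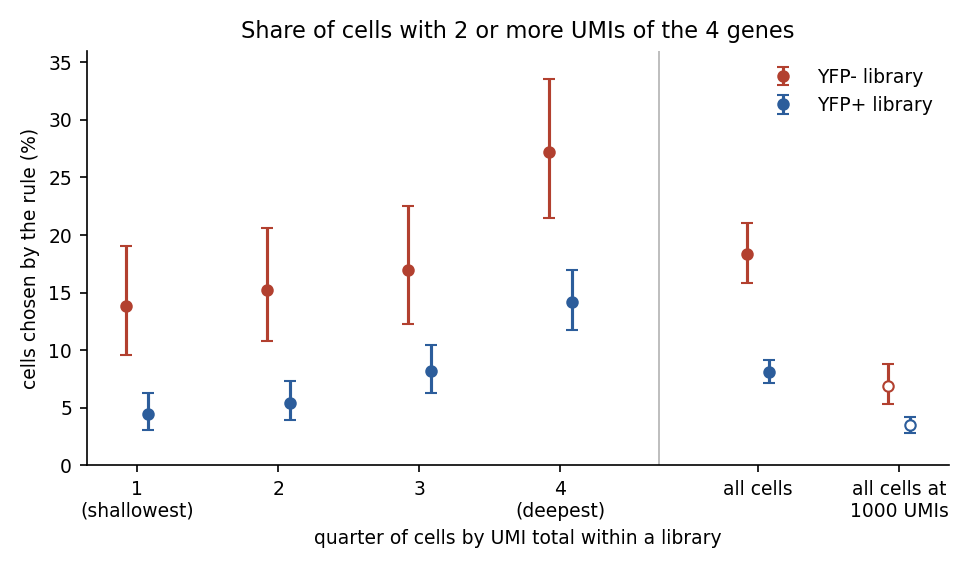
Share of cells chosen by the rule (%) in 4 equal groups of cells by UMI total, in all cells, and in all cells thinned to 1000 UMIs (open circles), with exact binomial 95% intervals; red is the YFP- and blue the YFP+ library. The share climbs with depth in both libraries and is higher in YFP- cells, at 6.93% against 3.49%, when every cell has 1000 UMIs.

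Free RNA in the droplets was measured in barcodes with 10 to 100 UMIs, where the 4 genes together took 358 CPM (YFP-) and 264 CPM (YFP+), against 320 and 185 CPM over all cells. At a depth of 1000 UMIs, a droplet filled wholly by such RNA would show *Cyr61* in 11.0% and 7.43% of cases, and thinned cells showed it in 8.49% and 4.91%. For *Vcam1* the cells gave 4.58% and 2.61% against 6.999% and 3.90%, for *Tcim* 5.14% and 2.58% against 7.10% and 5.73%, and for *Egfl7* 8.60% and 5.05% against 9.12% and 8.47%. The share of all cells with a UMI was therefore no higher than in wholly free RNA for any of the 4 genes in either library, and on its own it does not set expression apart from free RNA. At the median depth of a library, wholly free RNA would give 0.904 (YFP-) and 0.502 (YFP+) UMIs of the 4 genes together. How many such droplets would meet the rule was not computed. No cluster of T or NK cells was seen that could serve as a cell type without these genes, so clusters of macrophages were compared instead.

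The rule genes were spread unevenly over macrophage clusters at equal depth. Clusters were built from cells thinned to 1000 UMIs without the 4 rule genes and *Gpx3*, and they are given by number. In cluster 8, led by *S100a6*, *S100a4*, *Lgals3* and *Ccr2*, only 0.35% (0.04 to 1.24%) of 578 YFP+ cells met the rule after thinning. Cluster 6, led by the immediate early genes *Fosb*, *Fos* and *Dusp1*, reached 7.62% (5.23 to 10.64%) of 407 YFP+ cells and 12.6% (7.63 to 19.2%) of 143 YFP- cells. In cluster 3, led by the chemokine genes *Cxcl2* and *Ccl4* with *Hspa1a*, the share was 5.97% (3.73 to 8.98%) of 352 YFP+ and 16.1% (7.62 to 28.3%) of 56 YFP- cells. These shares lie outside the interval of cluster 8 in the YFP+ library, whereas the 72 YFP- cells of cluster 8 gave 2.78% (0.34 to 9.68%), an interval that overlaps those of clusters 3 and 6.

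By gene, the YFP+ cells of cluster 8 had *Cyr61* in 0.69% (0.19 to 1.76%) after thinning, against 9.83% (7.11 to 13.14%) in cluster 6. *Egfl7* was seen in 0.69% (0.19 to 1.76%) of cluster 8 and in 8.11% (5.65 to 11.2%) of cluster 6. *Vcam1* stood at 0.69% (0.19 to 1.76%) against 2.46% (1.18 to 4.47%) and *Tcim* at 1.73% (0.83 to 3.16%) against 4.18% (2.45 to 6.60%), with overlapping intervals. The median depth of these YFP+ cells before thinning was 1955.5 UMIs in cluster 8 and 2167 UMIs in cluster 6. *Vcam1* reached 5.29% (3.45 to 7.70%) in cluster 2 and 4.73% (2.07 to 9.11%) in cluster 5, which is led by *Tslp* and *Ccl24*, while *Cyr61* was in 2.54% (1.32 to 4.39%) of cluster 2. For *Cyr61*, *Egfl7* and *Vcam1*, the share thus differed between some clusters of the YFP+ library by more than counting error at equal depth. The part of free RNA in these shares was not tested.

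**Figure D2:**
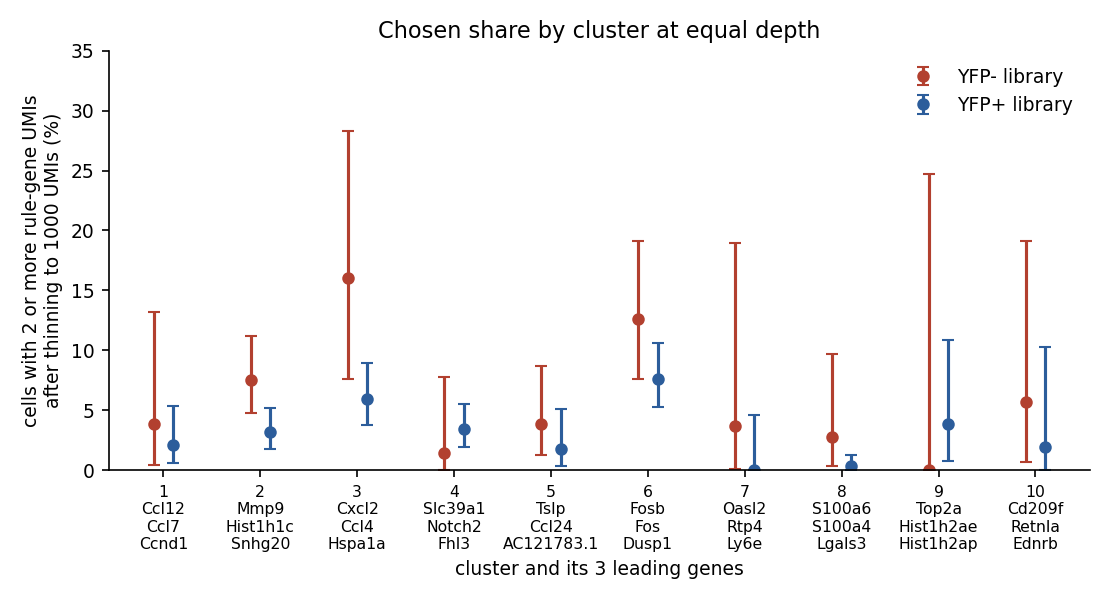
Share of cells with at least 2 UMIs of the 4 rule genes after thinning to 1000 UMIs (%), by cluster and library, with exact binomial 95% intervals; clusters of under 50 cells are not drawn. In YFP+ cells the share is lowest in clusters 7 and 8, at 0% and 0.35%, and highest in cluster 6, at 7.62%.

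Before thinning, the chosen cells were spread over the clusters. Cluster 6 held 26.8% of the chosen YFP- and 25.4% of the chosen YFP+ cells, against 13.5% and 13.2% of the other cells. Cluster 3 held 13.4% and 22.4% of the chosen against 4.65% and 11.4% of the other cells. Cluster 2, led by *Mmp9*, held 25% and 14.2% of the chosen against 34.2% and 16.7% of the other cells. Cluster 8 held 2.44% and 3.45% of the chosen against 9.30% and 21.6% of the other cells. Among the 20 nearest neighbours of a chosen cell, 20.03% in the YFP- and 13.4% in the YFP+ library were themselves chosen, against 15.6% and 7.35% around depth-matched other cells. Over all cells the chosen share was 18.3% and 8.09%, so the YFP- value around chosen cells lay close to it. No interval was computed for these shares. The chosen cells thus had more chosen neighbours than matched cells had, but they formed no cluster of their own.

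Single chosen cells held few UMIs of the rule genes. Just inside the threshold, 82 YFP- and 130 YFP+ cells had exactly 2 rule UMIs, and just outside it 189 and 394 cells had exactly 1. Another 35 and 56 cells had 3, and 47 and 46 cells had 4 or more, with a maximum of 14 UMIs in each library. *Cyr61* was seen in 50% of the chosen YFP- and 56.9% of the chosen YFP+ cells. *Egfl7* followed with 40.2% and 39.2%, *Tcim* with 32.3% and 25.9%, and *Vcam1* with 30.5% and 24.1%. More than 1 of the 4 genes was present in 47.0% (39.1 to 54.9%) of the chosen YFP- and 43.5% (37.1 to 50.2%) of the chosen YFP+ cells, and no cell had all 4. The summed level of the 4 genes in the chosen cells came to 1196 CPM (YFP-) and 1234 CPM (YFP+), against 102 and 74.3 CPM in the other cells, a gap that the rule itself made.

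The 4 genes had been put together as markers in an earlier look at the same data, so how far they occurred in the same cells is a description and no independent support. Each was left out of the rule in turn and measured in cells with at least 2 UMIs summed over the other 3. Other cells of the same library, matched 1 to 1 by UMI total, served as the comparison. *Cyr61* had 201 CPM (154 to 258) in the 104 YFP- cells so chosen, against 65.9 CPM (40.2 to 102) in matched cells, a log2 ratio of 1.59 (0.85 to 2.39). In the 119 YFP+ cells it had 209 CPM (160 to 268) against 41.1 CPM (21.2 to 71.8), a log2 ratio of 2.32 (1.42 to 3.32). The CPM intervals of *Cyr61* did not overlap between chosen and matched cells, but those of the share of cells with a UMI did, at 21.2% (13.8 to 30.3%) against 11.5% (6.11 to 19.3%) in YFP- and 15.97% (9.90 to 23.8%) against 7.56% (3.52 to 13.9%) in YFP+ cells. The 61 *Cyr61* UMIs in each library lay in 22 YFP- and 19 YFP+ cells.

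For *Vcam1* the log2 ratio was 1.18 (0.22 to 2.21) in YFP- and 1.38 (0.12 to 2.76) in YFP+ cells, on 30 and 19 UMIs in the chosen cells. *Tcim* gave 0.84 (-0.26 to 2.01) and 1.59 (0.50 to 2.78). *Egfl7* gave 0.53 (-0.28 to 1.37) and 1.07 (0.19 to 2.0). In the YFP- library, the intervals of *Tcim* and *Egfl7* therefore included 0, and a shared occurrence with the other 3 genes was not detectable at this depth. Against all other cells in place of matched ones, the ratios were smaller: *Cyr61* 0.83 (0.40 to 1.24) and 1.63 (1.21 to 2.02), *Vcam1* 0.50 (-0.12 to 1.09) and 0.53 (-0.21 to 1.21), *Tcim* 0.10 (-0.66 to 0.79) and 1.27 (0.64 to 1.85), and *Egfl7* 0.28 (-0.31 to 0.83) and 0.72 (0.17 to 1.23). The interval of *Vcam1* then included 0 in both libraries, while that of *Cyr61* lay above 0 in both. Without cells that carried RNA of other cell types, described below, the ratio of *Cyr61* against matched YFP+ cells was 1.66 (0.83 to 2.55), that of *Vcam1* 0.77 (-0.35 to 1.93) and that of *Tcim* 1.18 (0.03 to 2.42).

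**Figure D3:**
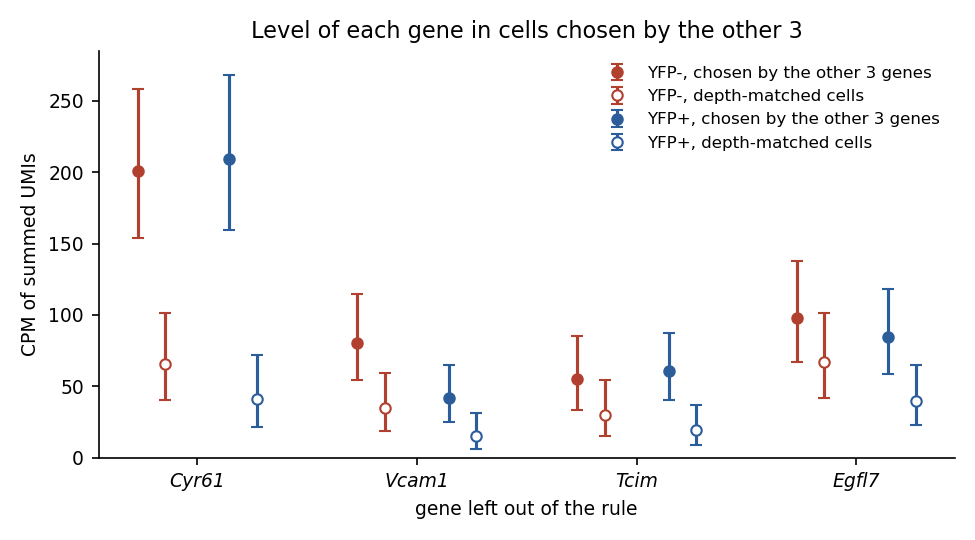
CPM of summed UMIs of each rule gene in cells chosen by the other 3 genes (filled) and in depth-matched cells (open), with exact Poisson 95% intervals; red is the YFP- and blue the YFP+ library. *Cyr61* stands highest, at 201 and 209 CPM against 65.9 and 41.1 CPM, and is the only gene whose intervals lie apart from those of matched cells in both libraries; those of *Vcam1* and *Egfl7* overlap in both.

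The chosen cells carried the macrophage programme at nearly the level of the other cells. All 12 macrophage markers were above 50 CPM, and none differed by more than 1.5-fold in both libraries. That count is near the 1.11% higher and 0.498% lower of all genes and no result about the list. *C1qa*, a subunit of complement C1q, was present in 98.8% of the chosen YFP- and 97.8% of the chosen YFP+ cells, at 5572 and 5740 CPM against 6244 and 6275 CPM in the other cells. *Csf1r*, the receptor on which macrophage survival depends, had 1026 and 928 CPM against 935 and 845 CPM. *Fcgr1*, which encodes the CD64 used in the sort, had 120 and 104 CPM against 105 and 115 CPM, with overlapping intervals. By the presence of *C1qa*, *Csf1r* and *Fcgr1*, the macrophage name held in these cells.

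Markers of vessel cells were few. The 14 endothelial genes summed to 10.9 CPM in the chosen and 33.0 CPM in the other YFP- cells, and to 68.2 against 31.3 CPM in the YFP+ library, where *Eng* was the most abundant. In the chosen YFP- cells 11 of the 14 were at 0, among them *Cdh5*, *Kdr*, *Tek* and *Erg*, and 4 of the 14 were at 0 in the chosen YFP+ cells. No chosen YFP- cell and 3 chosen YFP+ cells had 2 or more endothelial UMIs. In the YFP+ library this was 1.29% (0.27 to 3.73%) of chosen and 0.19% (0.06 to 0.44%) of other cells, and 0.68% of other YFP- cells. The log2 ratio of the endothelial sum in YFP+ cells was 1.10 (0.56 to 1.61), with 42.1% of the 38 chosen UMIs in 1 cell. Without cells that carried RNA of other cell types, described below, it was 21.4 CPM against 23.4 CPM. T and NK cell genes came to 0 and 1.79 CPM, and mast cell genes were at 0 in the chosen cells of both libraries.

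A few chosen cells carried RNA of other nerve cells at high levels. The 8 mural genes, of smooth muscle and pericytes, summed to 718 CPM in the chosen YFP+ cells against 61.6 CPM in the other YFP+ cells and 8.73 CPM in the chosen YFP- cells. Depth-matched YFP+ cells had 325 CPM. Only 5 of the 232 chosen YFP+ cells had 2 or more mural UMIs, 1 of them held 31.5% of the mural UMIs, and 7 chosen YFP+ cells fell in a cluster of 21 cells led by *Acta2* and *Tagln*. The 8 Schwann cell genes summed to 445 and 425 CPM against 106 and 99.7 CPM, and 1 YFP- cell held 95.6% of the Schwann cell UMIs of the chosen cells in that library. The 8 fibroblast genes had 32.7 and 46.7 CPM against 19.5 and 106 CPM. Cells with 2 or more UMIs over the endothelial, mural, fibroblast or Schwann lists made up 3 (1.83%) of the chosen YFP- and 15 (6.47%) of the chosen YFP+ cells, against 2.74% and 2.84% of the other cells. Without these cells, the mural genes summed to 3.89 CPM and the Schwann cell genes to 25.3 CPM in the chosen YFP+ cells.

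Between chosen and other cells, 29 of 2608 genes with at least 50 CPM were higher past 1.5-fold in both libraries, which is 1.11%, and 13 were lower, which is 0.498%. No test across replicates was possible, so these are counts of size in 2 libraries. The 50 CPM were reached over all cells, chosen and other together, as the mean of the 2 libraries. *Cd209a*, *Ms4a4a*, *Mctp1* and *Scoc* among the higher genes would have missed it in the other cells alone, and *Ccr2*, *Lgals3*, *S100a4*, *Emp1*, *Tep1*, *Capg*, *Ndufs4*, *Col14a1* and *Fmnl1* among the lower genes in the chosen cells alone, so the counts below describe the genes that passed and support nothing further. In single libraries 3.07% (YFP-) and 2.3% (YFP+) of genes were higher past 1.5-fold, and 3.53% and 1.69% were lower. With depth-matched cells as the comparison, 1.73% were higher and 0.613% lower in both, and 25 of the 29 higher and 10 of the 13 lower genes were again among them. Without the cells that carried RNA of other types, 31 genes were higher, 25 of them among the 29, and 19 were lower, with all 13 among them. Across all genes tested, the median log2 ratio was -0.01 in the YFP- and -0.00 in the YFP+ library.

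**Figure D4:**
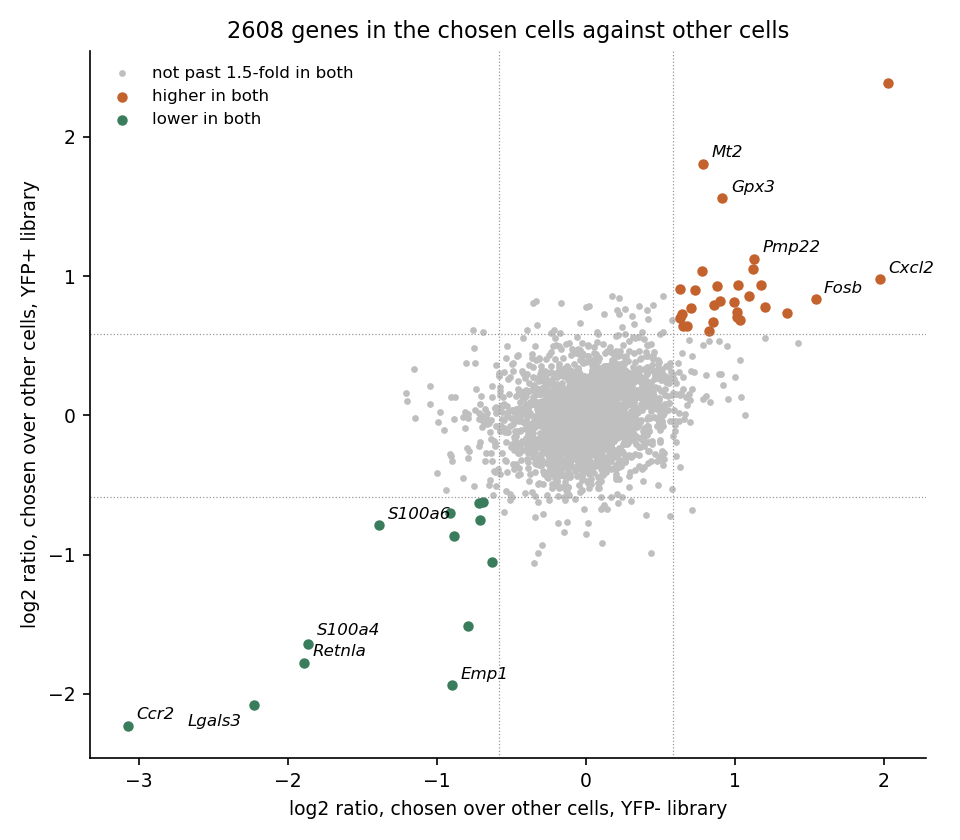
Log2 ratio of chosen over other cells in the YFP- (x axis) and YFP+ library (y axis) for 2608 genes, each with a pseudocount of 1 CPM; dotted lines mark 1.5-fold. Of these, 29 genes (orange) are higher and 13 (green) lower in both libraries; *Ccr2* lies lowest in both, and *Mt2* and *Pmp22* among the higher genes rest on few cells.

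*Gpx3* was higher in the chosen cells of both libraries. It had 288 CPM (241 to 342) in chosen and 152 CPM (135 to 171) in other YFP- cells, a log2 ratio of 0.92 (0.61 to 1.22). In the YFP+ library it had 188 CPM (154 to 228) against 63.3 CPM (56.7 to 70.5), a log2 ratio of 1.56 (1.23 to 1.88). A UMI of *Gpx3* was present in 39.6% of chosen and 22.0% of depth-matched YFP- cells, and in 32.3% against 6.47% of YFP+ cells. Its level in free RNA was 154 and 72.8 CPM, near that of the other cells and below that of the chosen cells. Cells with rule UMIs thus held more *Gpx3* whether or not depth was matched, and without the cells that carried RNA of other types the ratios were 0.93 and 1.57.

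The level of *Gpx3* also differed with the number of rule UMIs. Cells with 0, 1, 2, 3 and 4 or more rule UMIs had 136, 193, 310, 275 and 264 CPM of *Gpx3* in the YFP- library, and 51.3, 128, 200, 152 and 198 CPM in the YFP+ library. Cells with 1 rule UMI, which the rule left out, therefore lay between the cells with 0 and those with 2. Of 7 selenoproteins and glutathione peroxidases tested, *Gpx3* passed 1.5-fold in both libraries, and the absence of calls among the rest is near the 1.11% of all genes. The whole list of 10 summed to 8204 and 7471 CPM against 7208 and 6403 CPM in the other cells. *Selenop*, the selenium carrier, had 5914 and 5302 CPM against 5019 and 4354 CPM, and *Gpx1*, the cytosolic peroxidase, had 626 and 655 CPM against 706 and 712 CPM.

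The gene with the lowest ratio was *Ccr2*, the chemokine receptor by which monocytes leave the bone marrow and enter tissues. Its level was 17.5 CPM (7.54 to 34.4) in chosen against 154 CPM (137 to 173) in other YFP- cells, and 66.4 CPM (46.7 to 91.5) against 315 CPM (300 to 331) in YFP+ cells. The log2 ratios were -3.07 (-4.20 to -2.11) and -2.23 (-2.73 to -1.77). Only 2.44% of chosen YFP- cells had a *Ccr2* UMI, against 20.7% of depth-matched cells, and in the YFP+ library it was 9.48% against 37.1%. Chosen cells were therefore depleted of *Ccr2* at equal depth in both libraries. Of 4 monocyte-like genes tested, 3 were lower past 1.5-fold in both, beside 0.498% of all genes. *S100a4* had log2 ratios of -1.87 and -1.64 and *S100a6*, another calcium-binding protein, of -1.39 and -0.79. Without the cells that carried RNA of other types, *S100a4* was at -2.40 and *S100a6* at -1.50 in the YFP+ library. In cells of lower early response share, an alternative added later, *S100a4* was at -0.50 and -1.45 and *S100a6* at -0.66 and -0.31, which ended the call of each in 1 library. *Crip1* passed 1.5-fold in neither, at -0.44 and -0.01, and *Ly6c2*, *Plac8* and *Chil3*, markers of blood monocytes, had 0 UMIs in the chosen and likewise in the depth-matched cells.

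*Lgals3*, a galectin of activated and monocyte-derived macrophages, had 15.3 CPM (6.14 to 31.5) against 75.3 CPM (63.3 to 88.9) in YFP- and 21.5 CPM (11.1 to 37.6) against 94.4 CPM (86.3 to 103) in YFP+ cells. The other lower genes were *Emp1*, a membrane protein of spreading cells, *Capg*, which caps actin filaments, *Tep1*, *Lat2*, *Ndufs4*, *Samd9l*, *Col14a1* and *Fmnl1*. Against depth-matched cells, *Lat2*, *Samd9l* and *Fmnl1* were no longer past 1.5-fold in both libraries. Over *Emp1*, *Capg*, *Tep1*, *Lat2* and *Ndufs4*, log2 ratios against all other cells ran from -0.71 (*Lat2*) to -0.91 (*Ndufs4*) in YFP- and from -0.70 (*Ndufs4*) to -1.94 (*Emp1*) in YFP+ cells.

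*Retnla*, a secreted product of alternatively activated macrophages and one of the genes of macrophages in the outer nerve sheath, was lower as well. Its levels were 179 CPM (142 to 222) against 667 CPM (631 to 706) in YFP- and 314 CPM (269 to 364) against 1079 CPM (1051 to 1107) in YFP+ cells, log2 ratios of -1.89 and -1.78, and of -1.23 and -1.49 against depth-matched cells. The RNA sat in few cells, since 18.3% of chosen and 22.6% of matched YFP- cells had a UMI, and 14.7% against 20.7% of YFP+ cells. A single chosen cell held 50 of the 82 UMIs in the YFP- library, and another 92 of the 175 in the YFP+ library. In free RNA *Retnla* was abundant, at 1504 and 1725 CPM. Of the 7 epineurial-type genes tested, *Retnla* was the only one past 1.5-fold in both libraries, beside 0.498% of all genes lower. The absence of calls among the rest is near the 1.11% higher and 0.498% lower of all genes. *Lyve1*, a hyaluronan receptor on the same list, went the other way with log2 ratios of 0.37 and 0.60, and *Mgl2*, a lectin, stood at -0.11 and 0.06.

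**Figure D5:**
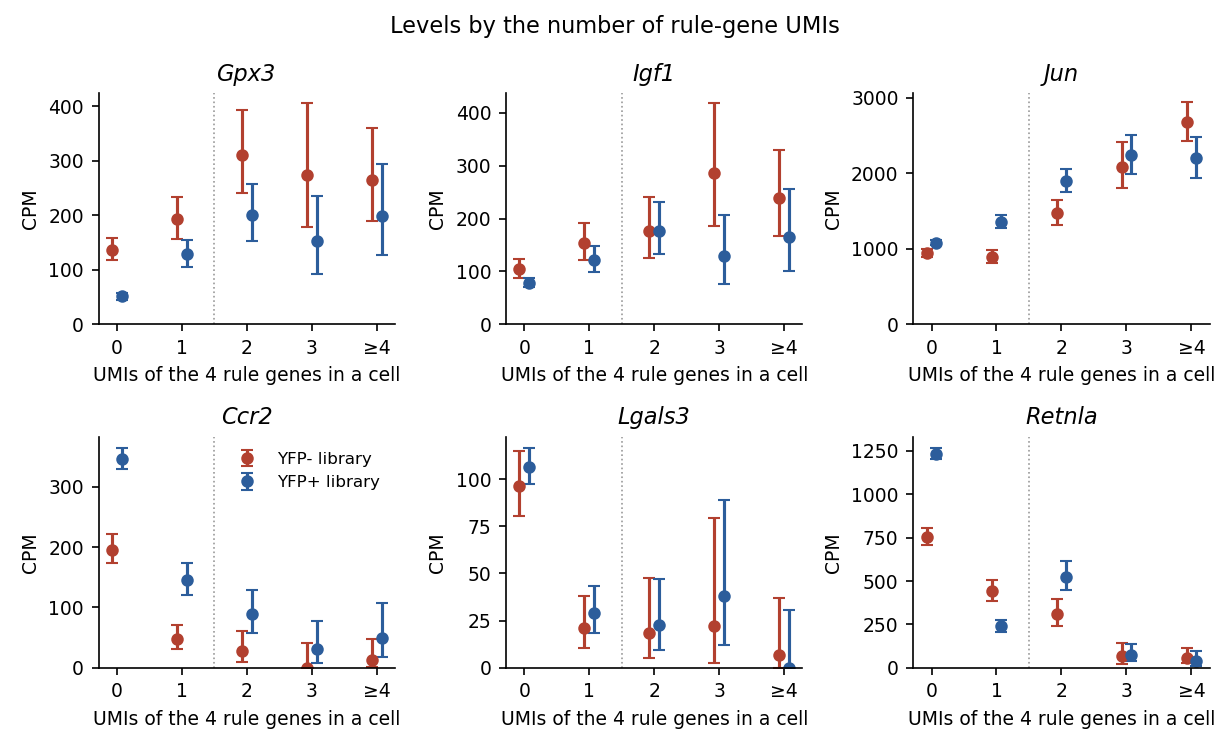
CPM of 6 genes in cells grouped by their number of rule-gene UMIs, with exact Poisson 95% intervals; red is the YFP- and blue the YFP+ library, and the dotted line marks the threshold of the rule. *Gpx3*, *Igf1* and *Jun* are higher and *Ccr2*, *Lgals3* and *Retnla* lower right of the line than in cells with 0 UMIs. Cells with 1 rule UMI, which the rule left out, already have less *Ccr2*, *Lgals3* and *Retnla* than cells with 0 in both libraries.

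Immediate early genes formed the largest group among the higher ones. Of 13 tested on the early response list, whose genes answer to acute stimuli, among them the dissociation of a tissue, 11 were higher past 1.5-fold in both libraries, beside 1.11% of all genes, and none lower, and the median log2 ratio of the 13 was 0.99 and 0.77. *Fos* and *Jun*, the partners of AP-1, had 3287 and 1995 CPM against 1287 and 932 CPM in YFP- cells, and 2826 and 2046 CPM against 1699 and 1126 CPM in YFP+ cells. The repressor gene *Atf3* had 229 CPM against 101 CPM and 292 CPM against 152 CPM. *Dusp1*, a phosphatase that ends MAP kinase signals, had log2 ratios of 1.02 and 0.71 and *Egr1* of 0.70 and 0.77. The heat shock genes *Hspa1a* (0.91 and 0.30) and *Hspa1b* (0.95 and 0.12) did not pass in the YFP+ library. The nerves had been digested with enzymes before the sort, and *Cyr61* is itself an early response gene; the part of dissociation in these levels was not tested.

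Among NF-kB targets 3 of 4 tested were higher past 1.5-fold in both libraries, beside 1.11% of all genes. *Nfkbia*, the inhibitor that NF-kB induces against itself, had 552 CPM against 239 CPM in YFP- and 675 CPM against 392 CPM in YFP+ cells. *Nfkbiz* had log2 ratios of 1.03 and 0.69, and *Ccl2*, the ligand of CCR2, had 1.20 and 0.56, short of 1.5-fold in the YFP+ library. *Cxcl2*, a neutrophil chemokine, had 766 CPM against 194 CPM and 786 CPM against 398 CPM. A single YFP- cell held 132 of the 351 *Cxcl2* UMIs of the chosen cells, and 10.4% of both chosen and matched YFP- cells had a UMI, so the level of *Cxcl2* in that library rested on few cells. In cells of lower early response share, *Cxcl2* turned to -5.21 and -5.46 and *Nfkbia* to -0.052 and -0.41, so neither was higher there. No interval was computed for these ratios, so the size of the change in *Cxcl2* is uncertain.

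The single rule genes were also looked at in turn. When cells were taken by at least 1 UMI of a single rule gene and set against depth-matched cells with 0 UMIs of all 4, a comparison added after the data had been seen, *Gpx3* was higher for each gene in both libraries, with log2 ratios from 0.99 (*Egfl7*, YFP-) to 2.53 (*Cyr61*, YFP+). *Jun*, an early gene, had 1.42 and 0.98 with *Cyr61* and 1.14 and 1.0 with *Tcim*, and 0.25 and 0.05 with *Egfl7* and 0.31 and 0.78 with *Vcam1* (YFP- and YFP+ in each pair). *Ccr2* was lower for each rule gene, from -1.02 (*Tcim*, YFP+) to -5.13 (*Cyr61*, YFP-), and *Igf1* ran from 0.56 (-0.17 to 1.31; *Tcim*, YFP+), where the interval included 0, to 1.43 (0.74 to 2.16; *Vcam1*, YFP-). *Cxcl2* varied in sign, from 2.50 (*Cyr61*, YFP-) to -1.43 (*Tcim*, YFP-), and was also below 0 with *Vcam1* in YFP- (-0.95) and *Egfl7* in YFP+ cells (-0.67). *Btg2* and *Atf3* stood at -0.20 and -0.36 with *Egfl7* in YFP+ cells, with intervals that included 0. Differences between the rule genes were not tested. In cells taken by *Vcam1*, *Tcim* and *Egfl7* with 0 UMIs of *Cyr61*, also added later, *Gpx3* had log2 ratios of 1.16 and 1.88 and *Jun* of 0.48 and 0.67.

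*Igf1*, a growth factor for Schwann cells and neurons, had 218 CPM (178 to 265) in chosen against 118 CPM (103 to 135) in other YFP- cells and 163 CPM (131 to 200) against 85.2 CPM (77.5 to 93.4) in YFP+ cells. *Pla2g7*, an enzyme that breaks down platelet-activating factor, had 356 CPM against 196 CPM and 377 CPM against 217 CPM. *Cd209a*, a lectin of dendritic cells and some tissue macrophages, had 105 CPM against 47.7 CPM and 91.5 CPM against 43.5 CPM. With at least 3 rule UMIs, the log2 ratio of *Cd209a* was 1.31 in YFP- and 0.31 in YFP+ cells, which ended its call. The dendritic cell genes *Xcr1*, *Clec9a* and *Ccr7* had 0 UMIs in the chosen cells, and *Flt3* had 0 UMIs in YFP- and 3 in YFP+ chosen cells. For *Igf1*, *Pla2g7* and *Cd209a*, the intervals of chosen and other cells did not overlap in either library.

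*Pmp22* and *Mt2* passed 1.5-fold in both libraries but not once the cells that carried RNA of other types were left out. *Pmp22*, a myelin gene, had 524 and 522 CPM against 239 CPM in the other cells of both libraries, and a single cell held 137 of its 240 UMIs in the chosen YFP- cells. Without the cells that carried RNA of other types, its log2 ratio was 0.13 and 0.20 in place of 1.13 in both. *Mt2*, a metallothionein, then had 0.47 and 0.15 in place of 0.79 and 1.81. In free RNA *Pmp22* stood at 837 and 1146 CPM.

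Of 14 genes that the study named for peripheral nerve macrophages, 7 were tested. Of these, *Ms4a4a* and *Cp* were higher past 1.5-fold in both libraries, beside 1.11% of all genes. None was lower, which is near the 0.498% of all genes, and the median log2 ratio was 0.48 and 0.50. *Ms4a4a*, a membrane protein of tissue macrophages, had 120 CPM against 59.0 CPM and 53.8 CPM against 31.8 CPM. *Cp*, which encodes the copper-bearing ferroxidase ceruloplasmin, had 170 CPM against 106 CPM and 142 CPM against 90.7 CPM. *Pla2g2d*, a secreted phospholipase, was at log2 ratios of 0.57 and 0.68 and *Ms4a7* at 0.48 and 0.40. Against depth-matched cells *Cp* had 0.70 and 0.47, which is short of 1.5-fold in the YFP+ library. The list is the study's own, so its count is a description and not independent evidence.

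Red pulp macrophages of the spleen make VCAM1 and recycle iron, so their genes were looked at. None of 6 tested was past 1.5-fold in both libraries, which is near the 1.11% and 0.498% of all genes and no result about the list, and their median was 0.19 and 0.17. *Hmox1*, the haem oxygenase, had 238 and 212 CPM against 171 CPM in both libraries. *Spic*, the transcription factor of red pulp macrophages, and *Slc40a1*, the iron exporter, were under 50 CPM and not tested. *Slc40a1* had 39.3 CPM (23.3 to 62.1) against 21.1 CPM (15.02 to 28.9) in YFP- and 43.1 CPM (27.6 to 64.1) against 10.2 CPM (7.65 to 13.3) in YFP+ cells, and *Spic* had 32.7 CPM (18.3 to 54.0) against 11.4 CPM (7.04 to 17.4) and 14.4 CPM (6.20 to 28.3) against 6.78 CPM (4.75 to 9.39). For each gene the intervals of chosen and other cells overlap in 1 of the libraries, on 8 to 24 UMIs in the chosen cells.

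Few partners and relatives of the rule genes were abundant enough to compare, and a count of 0 among so few is near the 1.11% and 0.498% of all genes past 1.5-fold. None of the 3 tested integrins of CCN1 (*Itgb5*, *Itgam* and *Itgb2*) and neither *Itga4* nor *Itgb1*, which form the receptor of VCAM1, was past 1.5-fold in both libraries. *Ctgf*, the nearest relative of *Cyr61* and another YAP and TAZ target, had 2 and 5 UMIs in the chosen cells, and *Axl*, the only YAP and TAZ target above 50 CPM, stood at log2 ratios of -0.04 and -0.04. In the Notch pathway, which EGFL7 can modulate, *Notch2* and *Rbpj* stayed within 1.5-fold, and *Hes1*, a target gene, had 2 and 10 UMIs. MHC class II genes (6 tested, medians -0.14 and -0.33), microglia genes (6 tested, 0.07 and -0.17), complement and efferocytosis genes (9 tested, 0.06 and 0.01) and cell cycle genes (3 tested, -0.25 and -0.18) had none past 1.5-fold in both libraries. The same held for *Cd79b* and *Ighm* of the B cell list and for *Mmp9*, the only neutrophil gene tested, while the defining B cell genes *Cd79a* and *Ms4a1* and the neutrophil genes *S100a8* and *S100a9* had 0 UMIs in the chosen cells and the other cells alike.

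Within the chosen cells, the YFP+ and YFP- libraries were set side by side. Of 1319 genes with at least 100 CPM, 2.88% were higher and 7.43% lower past 1.5-fold in the YFP+ library. The 3 with the highest ratio were the smooth muscle genes *Acta2* (271 CPM), *Tagln* (255 CPM) and *Myl9* (206 CPM), of which *Acta2* and *Tagln* are on the mural list. *Acta2* was seen in 4 and *Tagln* in 7 of the 232 chosen YFP+ cells, and the whole mural list fell to 3.89 CPM without the cells that carried RNA of other types. *Acta2* and *Myl9* had 0 UMIs in the chosen YFP- cells, which by a limit of 3 counts allows up to 6.55 CPM (8.05 CPM by the exact Poisson interval). *S100a6* followed with 228 CPM (190 to 271) against 63.3 CPM (42.4 to 90.9), a log2 ratio of 1.83 (1.25 to 2.46), and it was 1.23 (1.06 to 1.41) among the other cells. *Ccr2* was at 1.87 (0.78 to 3.09) among chosen and 1.02 (0.84 to 1.21) among other cells. *Prkar1a* and *Flna* had 1.20 and 0.91.

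The 6 genes with the lowest ratio of YFP+ over YFP- were *Gm6977*, *Gm6274*, *Rpl36-ps12*, *AC154540.2*, *Rpl38-ps2* and *Rpsa-ps10*, with log2 ratios from -2.30 to -1.77. Most are named as pseudogenes or predicted genes, and copies of ribosomal protein genes share reads with their parents, so these levels are uncertain. They were also lower among the other cells, from -1.08 to -1.76. *Gpx3* was at -0.61 (-0.99 to -0.23) among the chosen and -1.25 (-1.48 to -1.02) among the other cells. With 1 library per condition, a difference of YFP+ and YFP- cells cannot be told apart from a difference between libraries.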

How the data were processed

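The 2 libraries were single-cell RNA sequencing of sciatic nerve macrophages. The authors ran cellranger on GRCm38 and deposited raw UMI counts in matrices that were not filtered for cells. The submitters' processing notes name Cell Ranger 3.0.2 and Seurat 2.2.0, and the paper's methods name an earlier cellranger; the annotation release is not given in the sources used here. The study's cell filter is in reads, which the files do not hold.

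UMIs were summed over the cells of a group and given as CPM with exact Poisson intervals. Log2 ratios used a pseudocount of 1 CPM, with intervals from the binomial distribution of the 2 sums. Genes with at least 50 CPM were compared. A gene was called higher or lower past 1.5-fold in the same direction in both libraries, with no test, since there was 1 library per condition. The fold rule was tested on simulated data. Genes named are the 5 marker genes, the 15 highest and 10 lowest by the weaker of the 2 ratios, the genes of 27 lists, and the 6 highest and 6 lowest of YFP+ over YFP-; a few further called genes were named after their values were seen, and 1 of the 15 is not reported here.

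Thinning used 1000 UMIs and seed 1. Clusters and neighbours used 2000 variable genes, 20 components and 20 neighbours in scanpy 1.11.5 with leidenalg 0.10.2. Doublets were not called and were kept. Of 54838 gene IDs, 54809 are in GENCODE M21. RefSeq promoters of *Vcam1* and *Tcim* were not used here. The members and lists were chosen with earlier results of these data known. Alternatives were run for the rule, depth, filter, pseudocount and cells. The code used pandas 2.3.3 and scipy 1.17.1 under Python 3.11.15.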

Additional observations from a re-analysis of the deposited data

How the results depend on the processing

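Depth and the rule set the share of chosen cells. In the YFP- library it was 9.16% with at least 3 rule UMIs, 39.4% with at least 1, 6.93% at 1000 UMIs, and 11.6%, 14.6%, 14.3% and 13.4% without *Cyr61*, *Vcam1*, *Tcim* or *Egfl7* in the rule. In the YFP+ library these were 3.56%, 21.8%, 3.49%, 4.15%, 6.55%, 6.73% and 5.86%, with 11.7% at a minimum of 2000 UMIs and 6.46% at 500. The count of higher genes was 45 of 2608 tested against depth-matched cells, 55 of 5476 with a filter at 20 CPM and 674 of 20647 with none. The count of lower genes was 63 of 5476 at 20 CPM, 4 of 1306 at 100 CPM and 1413 of 20647 with no filter. It was 26 with at least 3 rule UMIs and 44 with cells chosen after thinning. With alternatives chosen after seeing the data it was 47 in cells of lower early response share, 8 in cells without *Ccr2*, *Lgals3* and *S100a4*, and 29 in cells chosen without *Cyr61*. Settings that kept the filter at 50 CPM tested 2608 genes, so counts under other filters are not on the same set of genes. Among chosen cells, 91 genes were higher in YFP+ with at least 3 rule UMIs, and 38 of 1319 under the main rule. With at least 3 rule UMIs the groups held fewer cells, and the genes that reached 100 CPM were taken anew. The 2 counts are therefore not on the same set of genes or the same counting error. In cells chosen by the other 3 genes, *Cyr61* had a log2 ratio of 0.83 (YFP-) against all other cells. The early response genes have no value in cells of lower early response share, nor *Ccr2*, *Lgals3* and *S100a4* in cells without them.

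Some log2 ratios reversed, the cause was not tested, and no interval was computed for the reversed values. *Pmp22* was -0.50 (YFP-) with cells chosen after thinning, -0.67 and -0.42 in cells of lower early response share and -0.12 (YFP-) in cells chosen without *Cyr61*. At the lower early response share *Cxcl2* was -5.21 and -5.46, *Ier5* -0.13 (YFP+), *Mt2* -0.30 (YFP-) and *Nfkbia* -0.052 and -0.41. *Mt2* was -0.052 (YFP-) in cells without *Ccr2*, *Lgals3* and *S100a4* and -0.29 and -0.28 without *Cyr61*, and *Emp1* was 0.34 (YFP-) without those 3 genes. Of the gene values recomputed, 516 moved by less than their counting error, 112 by more, and 14 reversed. The 516 include 48, 34 and 48 values under the filters at 20 CPM, at 100 CPM and none. A filter cannot move a gene's own ratio, so those values say nothing about stability. *Gpx3*, *Igf1*, *Ccr2*, *Lgals3* and *Retnla* kept their direction in every alternative that gave a value. No paired analysis was possible because each condition has 1 library, so that the single pair, sorted from 1 pool of mice, leaves no spread to estimate.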
